A study of Rattus norvegicus with 30 samples.

Results

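Rat bone marrow mesenchymal stem cells (BMSCs) kept for 12 h in chondrogenic medium, the group CH_12h, were compared with undifferentiated cells, the group CON. The samples were taken by their titles, 3 of CH_12h and 3 of CON, which are 6 of the 30 samples of the series, and all genes were described, not transcription factors alone. The series followed BMSCs through osteogenic (OS), adipogenic (AD) and chondrogenic (CH) medium at 3 h, 12 h and day 3. All samples came from Sprague Dawley rats, and the study's methods give the donors as 3 females aged 3 weeks whose marrow cells were plated in serum-containing DMEM. Cells of passage 2 were grown flat in 12-well plates for 2 days and then given a commercial chondrogenic medium (Promocell C-28012), whose composition was not given in the sources used here. Each sample pooled 3 cultures, and nothing shows that the samples of a group came from separate animals. The p-values and SEs therefore measure the spread between samples within groups, estimated over all 10 groups of the series and not in CH_12h and CON alone. The 3 CON samples were taken at the start, and uninduced cells kept for 12 h were not analysed here, so the medium, the loss of the old medium and the 12 h in culture cannot be told apart.

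Chondrogenesis starts when mesenchymal cells condense and switch on SOX9, the transcription factor that drives the collagen and aggrecan genes of cartilage. Ligands of the TGF-beta and BMP families start and sustain this step, and chondrogenic media commonly pair a TGF-beta ligand with a glucocorticoid. Cartilage itself is mostly extracellular matrix, made of collagen fibres, proteoglycans and hyaluronan, so cells that enter this lineage also load the secretory pathway.

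The values are CPM, the reads of a gene scaled to the total of its library. The totals were 6594559 to 7179051 reads in CON and 6312409 to 6923375 in CH_12h, so 3 reads, used as the floor of detection, were worth 0.418 to 0.475 CPM. Floors cover counting error only. The genes in the tables held 53.7 to 54.2% of each CON total and 61.3 to 67.2% of each CH_12h total. Replicates correlated at 0.991 to 0.993 (Pearson, across genes, which are not independent replicates), and every pair differed by more than counting noise. Of 17 stromal markers 11 were in the tables, and their summed level was 17220 to 18010 CPM in CON and 13450 to 17390 CPM in CH_12h, with Thy1, the stromal surface marker CD90, at 7736 to 8280 CPM in CON and 3846 to 5084 CPM in CH_12h. The 6 leukocyte markers in the tables summed to 0.152 to 0.975 CPM in CON and 0 to 0.289 CPM in CH_12h, with Adgre1, Mrc1 and Cybb at 0 in all 6 samples, and 5 endothelial and erythroid markers summed to 3.49 to 4.74 CPM and 2.31 to 2.81 CPM. Vim, the vimentin gene that mesenchymal cells express strongly, was at 0.139 to 0.303 CPM in CON and 0.634 to 1.25 CPM in CH_12h, and Actb, the gene of beta-actin, was at 0.557 to 3.01 CPM over all 6 samples. A gene's value may therefore hold only part of its reads, a value near 0 does not show that a gene was silent, and levels are compared between samples, never between genes.

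Of 4363 genes tested, 630 changed by 1 or more on the log2 scale with an adjusted p under 0.05 (limma on log2(CPM + 1), Benjamini-Hochberg), which is 14.4% of all tested genes. They were 412 genes higher in CH_12h (9.44%) and 218 lower (5.0%). The balance depended on the scaling between samples. Median-ratio scaling moved the log2 fold changes by a median of -0.18 and gave 273 higher (6.26%) and 319 lower genes (7.31%), so that the share of higher genes was 46.1% in place of 65.4%. The count test of edgeR on recovered reads called 7.59% higher and 9.7% lower. In 2133 genes (48.9%) the 3 samples of one group lay entirely on 1 side of the 3 samples of the other. Below, a list of genes is read against these shares, and all log2 values are of CPM + 1, so that low genes changed by more than their log2 values say. These are bulk samples, so fewer cells of a kind and less RNA per cell cannot be told apart.

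**Figure D1:**
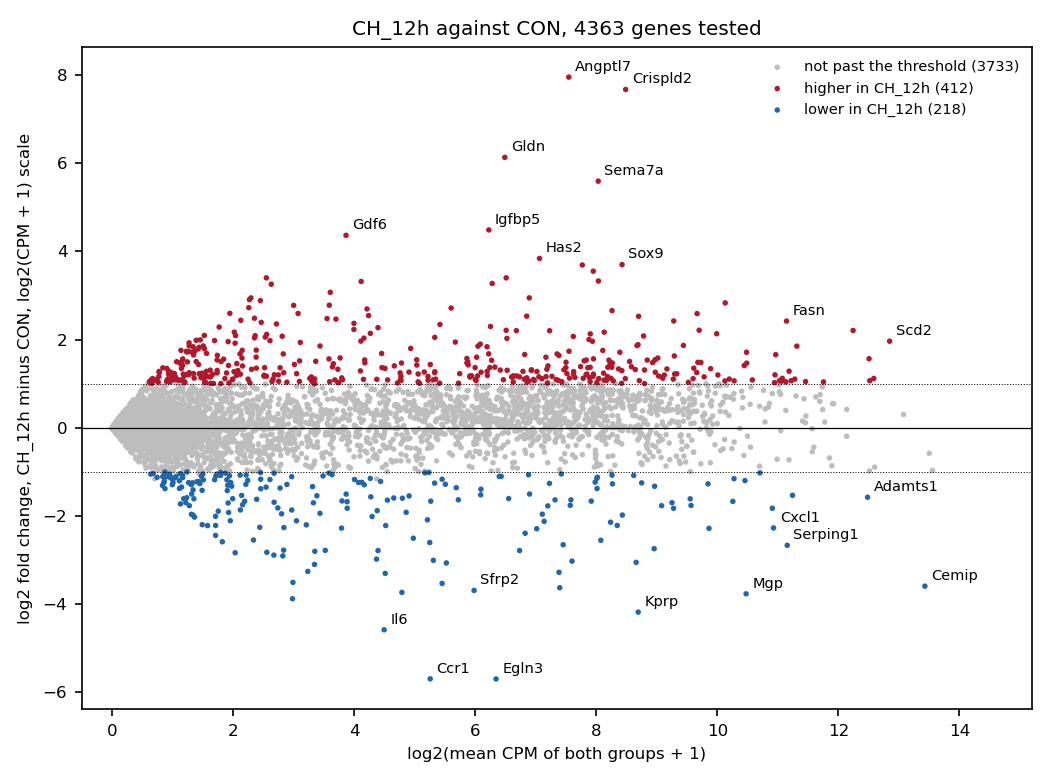
Log2 fold change of CH_12h minus CON (y axis) against the log2 of the mean CPM of both groups plus 1 (x axis) for the 4363 tested genes. Red points are the 412 genes called higher, blue points the 218 called lower, grey points the rest, and dotted lines mark the fold change threshold of 1; Angptl7 and Crispld2 lie highest and Egln3 and Ccr1 lowest.

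The largest rise was that of Angptl7, which encodes a secreted angiopoietin-like protein of the matrix. Its values were 0.43, 0.279 and 0.758 CPM in CON, with at most 5 reads in a sample, and 350, 473 and 291 CPM in CH_12h. The groups lay far apart (log2 fold change 7.95, SE 0.56, adjusted p = 1.5e-12). Crispld2, a secreted glucocorticoid-induced gene, went from 2.15, 2.79 and 2.58 CPM to 711, 783 and 643 CPM (log2 fold change 7.67, SE 0.23, adjusted p = 2.2e-21). Gldn, which encodes the adhesion protein gliomedin, rose by 6.13 on the log2 scale, and Sema7a, a membrane-anchored semaphorin that binds integrins, by 5.59. Igfbp5, a secreted binding protein of insulin-like growth factors, had a log2 fold change of 4.48, and Gdf6, a BMP family ligand of joint formation, one of 4.36. Further down the order came Has2 (3.84), Sox9 (3.70), Aldh1l2 (3.69), the neuronal tubulin gene Tubb3 (3.55), Mip (3.40), Tgfbi (3.40), Gfpt2, an enzyme that makes the hexosamines used for glycan synthesis (3.33) and the protease gene Plau (3.32). Mip, the lens aquaporin gene, had 0 reads in CON and 7.45 to 11.8 CPM in CH_12h, at least 22.3-fold higher than the floor.

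Among the falls, Egln3, a prolyl hydroxylase of the oxygen-sensing pathway, went from 157, 150 and 168 CPM in CON to 1.59, 2.03 and 2.69 CPM in CH_12h. The groups did not overlap (log2 fold change -5.70, SE 0.23, adjusted p = 2.35e-18). Ccr1, a chemokine receptor, fell by 5.69 on the log2 scale from 73.9 ± 5.08 CPM to 0.514 ± 0.559 CPM (SD, n = 3), and the cytokine gene Il6 fell by 4.58. Kprp (-4.18), the peptide hormone gene Apln (-3.88), Mgp (-3.77), Lum (-3.73), the Wnt inhibitors Sfrp2 (-3.69) and Frzb (-3.51), Enpp3 (-3.63), Cemip (-3.59), the heparan sulfate sulfatase gene Sulf1 (-3.53), Id2 (-3.30), Tnfrsf11b (-3.28) and the adaptor gene Shc4 (-3.26) made up the rest of the 15 largest falls. Apln had 0 reads in every CH_12h sample and was at least 30.1-fold lower, and Frzb was at least 29.6-fold lower, and the log2 values of these genes are not bounds. Called genes were ranked by the size of the change alone, and Frzb is named beside Sfrp2 out of that order. In each of these genes all 3 samples of CH_12h lay on 1 side of the CON samples, which the choice of genes required.

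**Figure D2:**
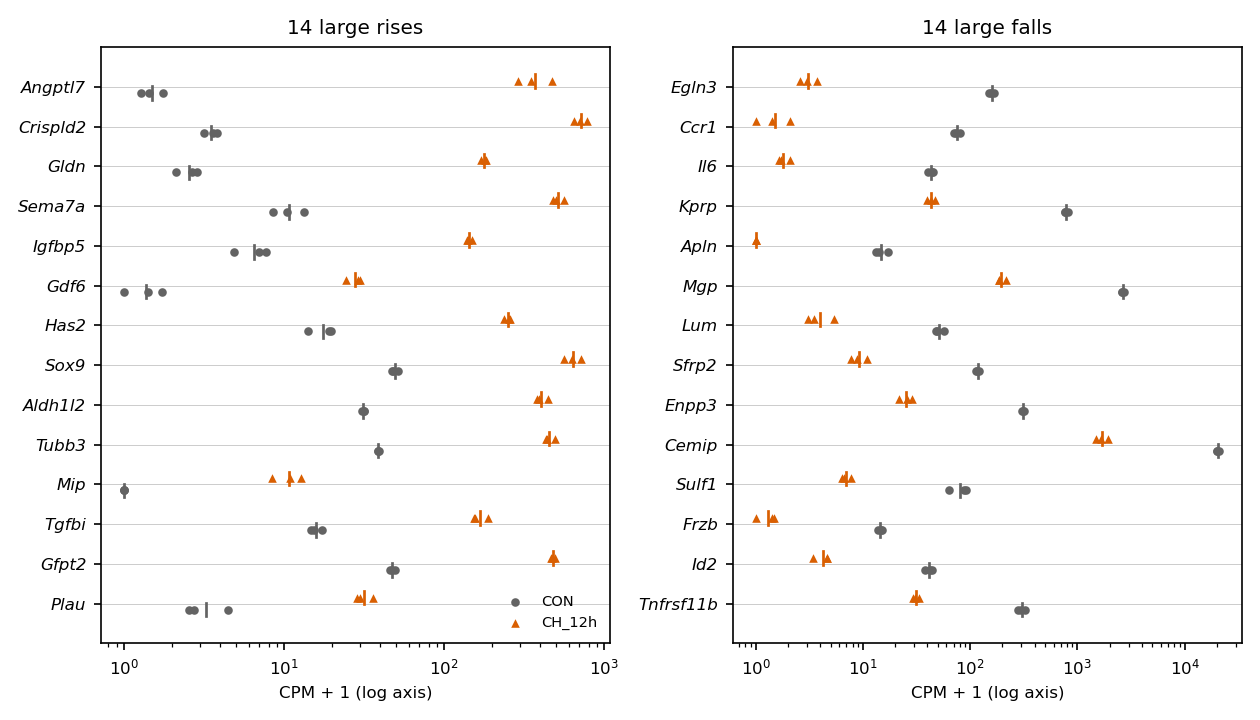
CPM plus 1 on a log axis for 14 of the largest rises (left) and 14 of the largest falls (right), with CON as grey circles, CH_12h as orange triangles, 1 point per sample and a short bar at the mean of each group (n = 3). The points of each group sit close together beside the distance between the groups, also for Cemip, which goes from 20372 to 1698 CPM.

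The transcription factors of cartilage, tendon and limb were led by Sox9, the master factor of the chondrocyte lineage. Sox9 was at 46.6, 46.8 and 50.8 CPM in CON and at 632, 718 and 564 CPM in CH_12h. The lowest CH_12h sample was far above the highest CON sample (log2 fold change 3.70, SE 0.14, adjusted p = 1.09e-18). Of 13 factors tested, out of 21 in the tables and 37 listed, 6 rose and 1 fell, against 9.44% and 5.0% of all tested genes, and the median log2 fold change was 0.70 against 0.11 for all tested genes. With median-ratio scaling and by edgeR 6 were higher and 2 lower, the second being Nfia (-0.85 and not called by limma on CPM). Creb3l1, a membrane-bound factor that promotes collagen secretion, went from 273 ± 8.06 to 1967 ± 367 CPM (SD, n = 3), a log2 fold change of 2.83. Scx, the factor of tendon progenitors, rose from 2.61 ± 0.673 to 18.8 ± 1.12 CPM (2.47). The other 3 that rose were low, with Runx3, which acts with RUNX2 in cartilage, at least 6.59-fold higher, Gbx2 at least 3.63-fold higher and Sox11 at 4.14 CPM in CH_12h against 0.83 CPM in CON. Meox2, a homeobox factor of the mesoderm, fell from 283, 321 and 263 CPM to 94.5, 89.1 and 92.5 CPM (-1.64). Sox6, the partner of SOX9, was listed at 0 in all 6 samples, and Sox5 was not analysed here.

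Of 11 cartilage matrix genes tested, 2 rose and 1 fell. The median log2 fold change was 0.00, which is the value of Comp, a gene with at most 1 read in a sample, and Prg4 had 0 reads in all 6 samples. Col2a1, the collagen of hyaline cartilage, and Acan, the gene of aggrecan, were listed at 0 in all 6 samples, in files where Vim and Actb are near 0 too, so the zeros set no limit on their expression. Col9a2, a collagen that coats type II fibrils, was at 1, 1.95 and 0.758 CPM in CON and 2.17, 2.49 and 0.792 CPM in CH_12h, so the groups overlapped. The 2 that rose were Chsy1, an enzyme that builds the chondroitin sulfate chains of proteoglycans, and Thbs3, a thrombospondin of skeletal tissue. Chsy1 was at 216, 225 and 252 CPM in CON and 1332, 1419 and 1424 CPM in CH_12h (log2 fold change 2.59, SE 0.11, adjusted p = 1.35e-17), and Thbs3 had a log2 fold change of 1.36, or 0.93 and no longer called with quantile scaling. Lum, the collagen-binding proteoglycan lumican, fell from 55.7, 47.9 and 47.3 CPM to 4.33, 2.49 and 2.06 CPM.

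Among structural matrix genes outside the cartilage list, 9 of 28 tested rose and 0 fell by limma. With median-ratio scaling and with edgeR, 7 rose and 0 fell, as Nid1 and Serpinh1 no longer passed. Tgfbi, an integrin-binding matrix protein induced by TGF-beta, was at 14.5, 13.7 and 16.2 CPM in CON and 154, 187 and 156 CPM in CH_12h (log2 fold change 3.40, SE 0.30, adjusted p = 2.22e-10). Col5a1, the collagen that sets fibril diameter, rose from 3.00 ± 0.426 to 21.0 ± 1.81 CPM (SD, n = 3). Postn, the matrix protein periostin, was at least 7.40-fold higher. Genes of elastic microfibrils and of collagen processing were also among the 9, namely Fbn2 (log2 fold change 1.58), Fbln2 (at least 2.74-fold higher, and 0.81 on the log2 scale, no longer called, without replicate 3 of CH_12h), Lox, the cross-linking lysyl oxidase (1.47), Adamts14, which trims procollagen (1.56), the collagen chaperone gene Serpinh1 (1.20) and the basement membrane gene Nid1 (1.07).

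Of 6 hyaluronan genes tested 1 rose and 1 fell, and the other 4 did not pass. Has2, the main hyaluronan synthase of mesenchymal cells, was at 18.8, 18.1 and 13 CPM in CON and 253, 237 and 256 CPM in CH_12h (log2 fold change 3.84, SE 0.27, adjusted p = 1.19e-12). Cemip, which starts the breakdown of hyaluronan, fell from 20866, 20136 and 20114 CPM to 1657, 1933 and 1503 CPM (-3.59, SE 0.13, adjusted p = 3.31e-19). The ranges of the groups were far from each other for both genes. Cd44, the hyaluronan receptor, was at 600 ± 25.7 and 538 ± 31.7 CPM (SD, n = 3) and did not pass the test. Among 18 proteases and inhibitors, 2 were called higher and 3 lower, against 2 and 5 with median-ratio scaling and 3 and 6 by edgeR. Adamts4, an aggrecan-cleaving protease, rose from 53.3, 56 and 47.9 CPM to 226, 292 and 220 CPM (2.20), and Plau, which activates plasminogen, from 2.25 ± 1.08 to 30.4 ± 3.82 CPM. Adamts1, another aggrecanase, fell from 8573 ± 205 to 2880 ± 187 CPM (-1.58), Serping1, the inhibitor of complement C1, fell from 3899, 3874 and 4044 CPM to 593, 673 and 597 CPM (-2.67), and the lysosomal protease gene Ctsd fell by 1.02 and was below the threshold without replicate 1 of CH_12h (-0.99) or replicate 3 of CON (-0.98). Mmp2, the gelatinase, went from 15899 to 8181 CPM with a log2 fold change of -0.97, which missed the size threshold and passed it with median-ratio scaling at -1.21.

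In the TGF-beta, BMP and activin list, 5 of 22 tested genes rose and 7 fell, and with median-ratio scaling 3 rose and 7 fell. Among ligands, Gdf6 was at 0.716, 0.418 and 0 CPM in CON and 28, 28.8 and 23.4 CPM in CH_12h. Inhbb, which encodes the beta B subunit of activins and inhibins, fell from 528, 570 and 506 CPM to 107, 129 and 108 CPM (log2 fold change -2.22). Tgfb1 was at 182 ± 2.29 CPM in CON and 359 ± 45.4 CPM in CH_12h (SD, n = 3), a log2 fold change of 0.97 under the size threshold. Both receptors tested fell, Tgfbr3, the co-receptor betaglycan, from 853, 852 and 885 CPM to 123, 141 and 120 CPM (-2.74) and the activin receptor gene Acvr2b from 7.45 to 2.75 CPM (-1.18). Of 9 known target genes tested 2 rose and 4 fell. Those that fell were Id2 at 41.3, 43 and 37 CPM in CON and 2.46, 3.58 and 3.64 CPM in CH_12h (-3.30), Id3 at -1.33, Atoh8 at -1.64 and Tnfrsf11b at -3.28. Tagln and Ccn2 rose with log2 fold changes of 2.34 and 1.16, as did Tgfbi (3.40) among the matrix-binding members, although Ccn2, listed as Ctgf, did not pass with median-ratio scaling or edgeR, nor without replicate 2 of CON (0.97). Fstl1, a secreted antagonist, rose by 1.01 and passed neither of these alternatives, nor the fit without replicate 1 of either group or replicate 3 of CON (0.90 to 0.93). Smad7 was not analysed here, and Skil had at most 2 reads in a sample.

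Of 16 genes tested from the glucocorticoid list, which holds induced genes, receptors and steroid enzymes, 7 rose and 1 fell, against 5 and 2 with median-ratio scaling and 6 and 2 by edgeR. The 14 induced genes among them held all 7 rises and 0 falls, or 5 and 1 with median-ratio scaling, where Snai2 (-0.82, not called by limma on CPM) was the 1 lower. Of the same 16 genes, 7 were higher and 2 lower than CON in OS_12h, and 8 and 2 in AD_12h. In those media 14.7 and 8.14% of all tested genes were higher than CON. Beside Angptl7 and Crispld2, the classic target Tsc22d3, which encodes the anti-inflammatory protein GILZ, was at 31.1, 26.9 and 25.3 CPM in CON and 103, 107 and 97.7 CPM in CH_12h (log2 fold change 1.85, SE 0.15, adjusted p = 6.03e-11). Epas1, the hypoxia-inducible factor HIF-2 alpha, rose from 376 ± 9.49 to 1655 ± 128 CPM (SD, n = 3), and Mertk, a receptor for the clearance of dead cells, from 9.50 to 32.3 CPM. Chst1 and Tns1 were at 1.08 and 1.05 and fell below the size threshold with 1 library left out, Chst1 without replicate 2 of CH_12h (0.98) or of CON (0.94) and Tns1 without replicate 1 of CH_12h (0.96) or replicate 2 of CON (0.83). Mt2A, a metallothionein, was at 356 CPM in CON and 287 CPM in CH_12h. Hsd11b1, the enzyme that regenerates active glucocorticoid inside cells, fell from 1246, 1208 and 1056 CPM to 345, 366 and 320 CPM (-1.76, adjusted p = 3.67e-15). The receptor gene Nr3c1 and the targets Fkbp5 and Per1 were not analysed here.

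Sterol and fatty acid synthesis was the list with the highest share of genes that rose. Of 17 tested, 10 rose and 0 fell, the median log2 fold change was 1.19, and 14 did not overlap between the groups, against 48.9% of all tested genes. The rises held in number under the scalings, with 9 after median-ratio scaling and 10 by edgeR. Fasn, the fatty acid synthase, was at 694, 697 and 733 CPM in CON and 3654, 4465 and 3328 CPM in CH_12h (log2 fold change 2.42, SE 0.15, adjusted p = 1.49e-13). Scd2, which desaturates the products of Fasn, went from 2965, 2910 and 3152 CPM to 11612, 12275 and 11295 CPM (1.96). In the sterol branch, Cyp51, a demethylase of lanosterol, rose from 1105 ± 46.7 to 3985 ± 94.0 CPM (SD, n = 3; 1.85), Sqle, which oxidises squalene, from 440 ± 29.4 to 1122 ± 48.1 CPM (1.35), and Fdps and Fdft1, which make farnesyl pyrophosphate and squalene, had log2 fold changes of 1.43 and 1.33. The low genes Elovl6, which elongates fatty acids (at least 8.01-fold higher), and Pmvk, a kinase of the mevalonate pathway (1.17), were also called, and Pmvk was below the size threshold without replicate 3 of CON (0.99) and with median-ratio scaling. Msmo1, just under 1 on the log2 scale, and Insig1 (0.95) were higher in all 3 CH_12h samples than in any CON sample and just missed the size threshold.

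The bases before the start of 9 of these genes were in the RefSeq promoter table of assembly GRCr8, and 5 are printed here because 4 of them carry the letters CCAAT, bound by the factor NF-Y, a known partner of the sterol-responsive SREBP factors, and 1 does not. Each run covers the 250 bases before the annotated start, read 5′ to 3′ on the strand of the gene, with CCAAT or its reverse complement ATTGG in capitals.
Fdps (chr2:176804817-176805066, minus strand): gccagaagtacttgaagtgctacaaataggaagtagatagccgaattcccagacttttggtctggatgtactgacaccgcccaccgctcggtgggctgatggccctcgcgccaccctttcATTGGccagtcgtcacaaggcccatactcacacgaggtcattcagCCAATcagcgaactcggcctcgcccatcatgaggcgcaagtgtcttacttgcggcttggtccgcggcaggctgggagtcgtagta
Scd2 (chr1:253118127-253118376, plus strand): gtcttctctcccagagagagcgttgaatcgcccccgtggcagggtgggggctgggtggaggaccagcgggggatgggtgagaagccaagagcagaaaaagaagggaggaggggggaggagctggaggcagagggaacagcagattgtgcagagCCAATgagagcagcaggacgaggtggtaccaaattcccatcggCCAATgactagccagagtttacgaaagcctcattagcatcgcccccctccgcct
Msmo1 (chr16:29746863-29747112, plus strand): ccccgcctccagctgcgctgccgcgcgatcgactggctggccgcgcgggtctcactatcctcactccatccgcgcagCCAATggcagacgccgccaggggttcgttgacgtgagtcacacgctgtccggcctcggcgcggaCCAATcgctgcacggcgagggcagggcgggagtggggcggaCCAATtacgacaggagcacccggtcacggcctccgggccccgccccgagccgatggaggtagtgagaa
Insig1 (chr4:8057770-8058019, minus strand): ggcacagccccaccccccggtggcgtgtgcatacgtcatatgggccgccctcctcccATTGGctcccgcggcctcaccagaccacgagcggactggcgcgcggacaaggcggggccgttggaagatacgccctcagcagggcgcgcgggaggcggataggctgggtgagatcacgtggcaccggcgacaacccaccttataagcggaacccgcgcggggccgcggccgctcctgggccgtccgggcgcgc
Cyp51 (chr4:30991443-30991692, plus strand): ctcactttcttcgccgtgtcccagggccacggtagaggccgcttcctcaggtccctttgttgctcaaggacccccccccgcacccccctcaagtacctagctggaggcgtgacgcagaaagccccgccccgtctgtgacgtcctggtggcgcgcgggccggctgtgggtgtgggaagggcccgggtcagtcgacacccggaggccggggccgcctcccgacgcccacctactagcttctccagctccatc
Fdps has the motif at positions -130 and -85 from the start, Scd2 at -97 and -54, Msmo1 at -173, -109 and -68, and Insig1 at -193. CCAAT on either strand was in 8 of the 9 list promoters (88.9%), in 34.8% of the 3353 tested genes with a promoter in the table, and in 34.3% of all 27457 promoters. Among genes called higher it was in 39.4% of 310 promoters, and among genes called lower in 31.4% of 169. A form of the sterol response element, TCACNCCAC on either strand, was in 0 of the 9 and in 1.04% of the tested genes' promoters. These 2 motifs were chosen after the values of the list were seen. Of the other motifs searched on both strands, GGCGCC, a BMP SMAD site, was in 16.9% of the tested genes' promoters, the paired half-sites of the glucocorticoid receptor in 3 of the 3353, and the SMAD palindrome GTCTAGAC in 7. GGCGCC was in 18.4% of the promoters of genes called higher, 15.4% of those called lower and 5 of 15 from the TGF-beta list. These matches describe letters in a window and not binding.

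Of 20 tested genes of the endoplasmic reticulum and its stress response, 8 rose and 1 fell, with 6 and 1 after median-ratio scaling. Sec61a1, the channel through which new proteins enter the reticulum, was at 955, 938 and 992 CPM in CON and 2897, 3203 and 3002 CPM in CH_12h (log2 fold change 1.66, adjusted p = 2.96e-10). Sec24d, a coat protein that loads large cargo such as procollagen, rose from 668 ± 11.9 to 2192 ± 130 CPM (SD, n = 3; 1.71), and Kdelr2, the receptor that returns escaped chaperones, from 28.5, 24.7 and 39.6 CPM to 93.9, 152 and 95.2 CPM (1.84). Sec23a (1.29) and Fkbp14 (1.55) followed, whereas the chaperone gene Hspa5 (1.12) and Dnajc3 (1.11) passed by limma on CPM and not with median-ratio scaling or edgeR. Chac1, an enzyme of glutathione breakdown, was the 1 that fell (-1.15). Of 10 ribosome biogenesis genes, 2 rose, Rrp12 (1.67) and Bop1 (1.33), and the median of the 10 was 0.86. Leaving out replicate 2 of CON gave 4 higher, and quantile scaling 1, as Bop1 no longer passed (0.96).

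Of 21 cytokine and chemokine genes tested, 0 rose and 11 fell, against 9.44% and 5.0% of all tested genes, and 12 fell with median-ratio scaling. Il6 was at 43.4, 39.3 and 44.1 CPM in CON and 0.722, 1.09 and 0.634 CPM in CH_12h (log2 fold change -4.58, SE 0.29, adjusted p = 1.49e-13). The neutrophil chemokine Cxcl1 fell from 2996, 3574 and 3120 CPM to 655, 643 and 701 CPM (-2.27), and its relatives Cxcl2 (at least 8.54-fold), Cxcl3 (at least 2.83-fold) and Cxcl6 (-3.10) fell too. Ccl7, which attracts monocytes, fell from 1130 ± 14.9 to 369 ± 8.33 CPM (SD, n = 3), but Ccl2, its close relative, was at 1428, 1257 and 1429 CPM in CON and 1122, 861 and 1351 CPM in CH_12h, with overlapping groups. Il1rl1, the receptor of interleukin-33 (-1.70), Il1a (-2.26), Csf2 (at least 7.88-fold) and Tnfaip2 (-1.28) also fell. Tnfrsf11b, which encodes osteoprotegerin, the decoy receptor that restrains bone resorption, went from 299.5, 325 and 281 CPM to 32.2, 29.9 and 28.5 CPM. In the interferon and antigen presentation list 1 of 18 rose, Gbp5, and 2 fell, Ifi27 and Plscr1, or 4 by edgeR.

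Genes of smooth muscle contraction and the actin cytoskeleton rose in 7 of 27 tested members and fell in 0 by limma, against 5 higher and 2 lower with median-ratio scaling, and 6 and 1 by edgeR, and 2 were lower without replicate 2 of CH_12h or replicate 3 of CON. Tagln, an actin-bundling gene of smooth muscle, was at 11.5, 14.8 and 13.2 CPM in CON and 69, 69.7 and 72.4 CPM in CH_12h (log2 fold change 2.34, adjusted p = 5.94e-10). Cnn1, the calponin gene, rose from 87.9 ± 0.822 to 388 ± 28.1 CPM (SD, n = 3; 2.13), and Csrp1, which binds actinin, from 761 ± 12.8 to 2105 ± 148 CPM (1.46). The actin genes Acta1 and Actg2 were near 0 in CON and at least 17.3-fold and 5.53-fold higher. Ccn2, listed here too, and Cnn3 (1.07) made up the 7, and Cnn3 was not called with median-ratio scaling or without replicate 1 or 2 of CH_12h (0.95 each). Of 14 integrin, cadherin and junction genes, 6 rose and 1 fell. Sdc1, a heparan sulfate proteoglycan of the cell surface (1.71), and Cdh11, the mesenchymal cadherin (1.34), were among the 6, with Cldn1 (1.98), Cdh6 (at least 6.01-fold), Ncam1 (at least 5.40-fold) and Cdh3 (at least 3.56-fold, and not called without replicate 3 of CH_12h or with median-ratio scaling), and Gja1, which encodes the gap junction protein connexin 43, fell from 936, 888 and 1080 CPM to 258, 272 and 283 CPM (-1.83).

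In the hypoxia and glycolysis list 2 of 17 rose and 5 fell, with 6 lower after median-ratio scaling and 8 by edgeR. Beside Egln3, Bnip3, a hypoxia-induced gene of mitophagy, fell from 347, 342 and 344 CPM to 42.2, 39.7 and 42.5 CPM (log2 fold change -3.02, adjusted p = 3.74e-18). The lactate exporter gene Slc16a3 (at most 2 reads in a CH_12h sample), the glucose transporter gene Slc2a1 (-1.13) and the glycolytic gene Aldoa (-1.07) fell too, and the calls of Slc2a1 and Aldoa were lost with single libraries left out, Slc2a1 without replicate 3 of CH_12h (-0.96) or replicate 1 of CON (-0.98) and Aldoa without replicate 2 of CH_12h (-0.96) or of CON (-0.98). Epas1 and Lox were the 2 that rose. Of the insulin-like growth factor genes, Igfbp5 rose from 3.87, 5.99 and 6.67 CPM to 139, 149 and 138 CPM, whereas Stc1, a secreted calcium-regulating hormone listed with them (-3.01), Irs2 (-1.61) and Igfbp6 (-1.27) fell. In the Wnt list 2 rose and 3 fell of 17. Sfrp2, a secreted inhibitor, fell from 116, 120 and 113 CPM to 6.79, 9.97 and 7.76 CPM, and the receptor gene Fzd4 from 301 ± 20.4 to 47.2 ± 4.94 CPM (SD, n = 3). Fzd9 (at least 7.57-fold) and Ccn5 (1.54) rose from near 0, and Rnf43 fell by 1.09, or by 0.79 without replicate 1 of CH_12h and 0.94 without replicate 3 of CON, which ended its call.

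Immediate-early genes were lower in 3 of 18, or 5 by edgeR, and higher in 1. Jun, a subunit of the factor AP-1, went from 22.6, 24.8 and 18.5 CPM to 3.76, 3.74 and 3.64 CPM (log2 fold change -2.28), with Klf5 (-1.55) and Spry2, an inhibitor of growth factor signalling (-1.95). Klf10, which TGF-beta induces early, rose from 5.75 to 17.5 CPM (1.45). In the Notch list Notch2 rose (1.22, and 0.98, not called, with median-ratio scaling), and Notch1 (-1.22) and the ligand gene Dll1 (-1.86) fell, with 4 lower by edgeR. Among antioxidant genes Gpx1, which encodes a glutathione peroxidase, rose (1.86), whereas Gclm, which encodes a subunit of the enzyme that starts glutathione synthesis, fell from 188, 201 and 180 CPM to 34.7, 36.8 and 34.4 CPM (-2.39). Of 7 cell cycle inhibitors and p53 targets, Gadd45a (-2.26) and Rbl2 (-1.02) fell, the latter not without replicate 3 of CH_12h (-0.99) or replicate 2 of CON (-0.99), and just short of the threshold without replicate 3 of CON. In the clock list Bhlhe40 rose (1.31, and 0.97, not called, with quantile scaling) and Nr1d1 fell (at least 3.41-fold, and not called without replicate 2 of CON).

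Markers of the other lineages moved in single genes. Of 9 osteogenic markers, Ibsp, which encodes bone sialoprotein, rose from 2.86, 2.65 and 2.12 CPM to 10.5, 16.4 and 11.2 CPM (log2 fold change 1.93), and Mgp, an inhibitor of calcification that chondrocytes and vessels make, fell from 2750, 2604 and 2603 CPM to 213, 184 and 186 CPM (-3.77, adjusted p = 4.76e-14). Mgp was also below CON at 12 h in the other media, at 134 to 152 CPM in OS_12h and 203 to 524 CPM in AD_12h. Tnfrsf11b, described with the cytokines, was the other osteogenic marker that fell. Sp7 and Alpl were listed at 0 in all 6 samples, and Runx2 was not analysed here. Of 10 adipogenic markers, Lpl, the lipoprotein lipase, fell from 721, 663 and 777 CPM to 83.3, 78.2 and 96.8 CPM (-3.05). Lep, the leptin gene, had 0 reads in CON and 1.01, 2.18 and 1.11 CPM in CH_12h, at least 3.30-fold higher. Pparg, the master factor of fat cells, had at most 1 read in a sample, and Cebpa was at 0.418 to 1.06 CPM in CON and 0 to 0.468 CPM in CH_12h, without passing the test. Among stromal markers Cspg4 rose (1.90), Thy1 was below the size threshold at -0.89 and called lower with median-ratio scaling at -1.13. In the endothelial list Vwf fell by 1.09, from at most 4.32 CPM, and was not called without replicate 2 of CON (-0.96).

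**Figure D3:**
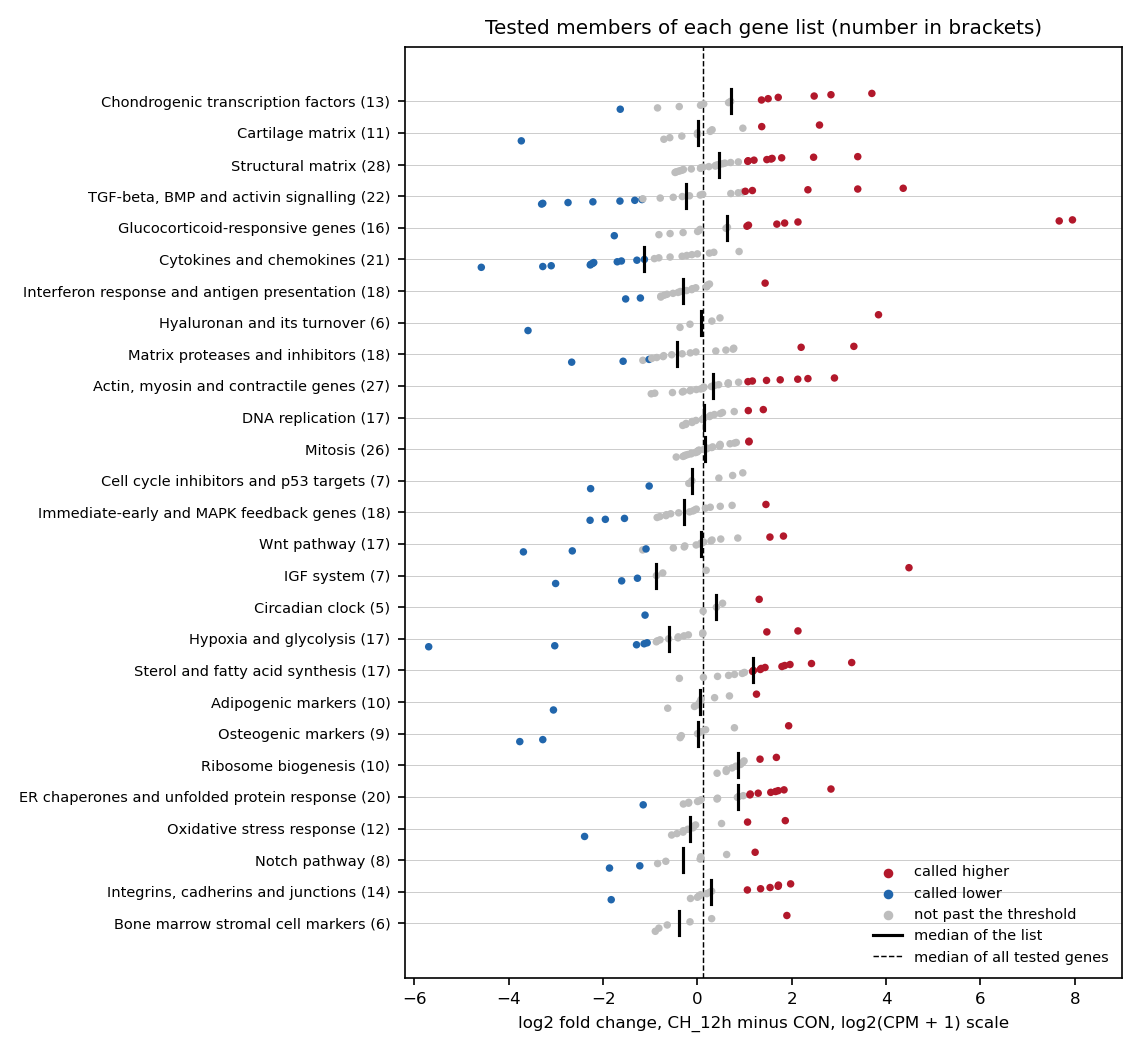
Log2 fold change of CH_12h minus CON (x axis, log2(CPM + 1) scale) for each tested member of the gene lists with at least 5 tested members (rows, number tested in brackets). Red and blue points passed the threshold as higher or lower, grey points did not, black bars are list medians and the dashed line is the median of all tested genes, 0.11. The sterol and fatty acid list lies to the right of that line but for 1 gene, and the cytokine list mostly to the left.

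Cell cycle genes were close to CON in CH_12h and set this medium apart from the others at the same time. Of 17 DNA replication genes tested, 2 were higher in CH_12h than in CON, and of 26 mitosis genes 2, with medians of 0.14 and 0.17. Those called were Rrm1, Rfc3 (1.08), Cdc20 (1.09) and Kif20a (1.09), and with median-ratio scaling Rrm1 alone was. Rfc3 was just short of the threshold without replicate 2 of CH_12h. In the same fit, with the same CON samples, the replication genes higher than CON were 13 in CH_3h, 16 in OS_12h and 13 in AD_12h, where 13.1, 14.7 and 8.14% of all tested genes were higher, and the mitosis genes were 18, 23 and 18. Compared directly, without CON, CH_12h was lower than OS_12h in 16 of 17 replication and 22 of 26 mitosis genes (8.87% of all tested genes), lower than AD_12h in 12 and 19 (6.56%), and lower than CH_3h in 12 and 19 (5.94%). No gene of either list was higher in CH_12h in these 3 comparisons by limma on CPM. Genes were tested when 3 or more of the 30 samples, of any group, reached 1 CPM. Members under 1 CPM in CON and CH_12h, such as Cdc6 and E2f2, therefore entered through groups where they were higher. For such members these counts were partly fixed by the filter. Cdc6 was at 0.156 to 0.433 CPM in CH_12h and 1.64 to 1.98 CPM in OS_12h. Mcm6 and Kif11 were above 1 CPM in every CON and CH_12h sample. Mcm6, a subunit of the replicative helicase, was at 102, 102 and 94.2 CPM in CON, 128, 139 and 117 CPM in CH_12h, 700, 752 and 673 CPM in CH_3h, 1181, 1246 and 1209 CPM in OS_12h and 483, 395 and 394 CPM in AD_12h. Kif11, a motor of the mitotic spindle, was at 80.5 to 84.7 CPM in CON and 80.6 to 87.1 CPM in CH_12h, which overlapped, and at 674 to 750 CPM in OS_12h and 699.9, 392 and 405 CPM in AD_12h. Replicate 1 of AD_12h stood above the other AD_12h samples in such mitosis genes, also in Cdc20 at 449 against 151 and 141 CPM, and without it CH_12h was lower than AD_12h in 11 replication and 16 mitosis genes. The differences of CH_12h minus OS_12h were -3.24 (SE 0.12, adjusted p = 1.22e-19) for Mcm6 and -3.08 (SE 0.17, adjusted p = 2.68e-15) for Kif11. Rrm1, which supplies deoxynucleotides, stood partly apart, at 431 ± 17.1 CPM in CH_12h against 163 ± 10.9 CPM in CON (SD, n = 3; log2 fold change 1.40). The linker histone gene Hist1h1a, made for new chromatin, was at 12.1 CPM in CH_12h on average, 278 CPM in OS_12h and 226 CPM in AD_12h. By day 3 of chondrogenic medium 0 replication and 7 mitosis genes were higher than CON, where 11.6% of all tested genes were.

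**Figure D4:**
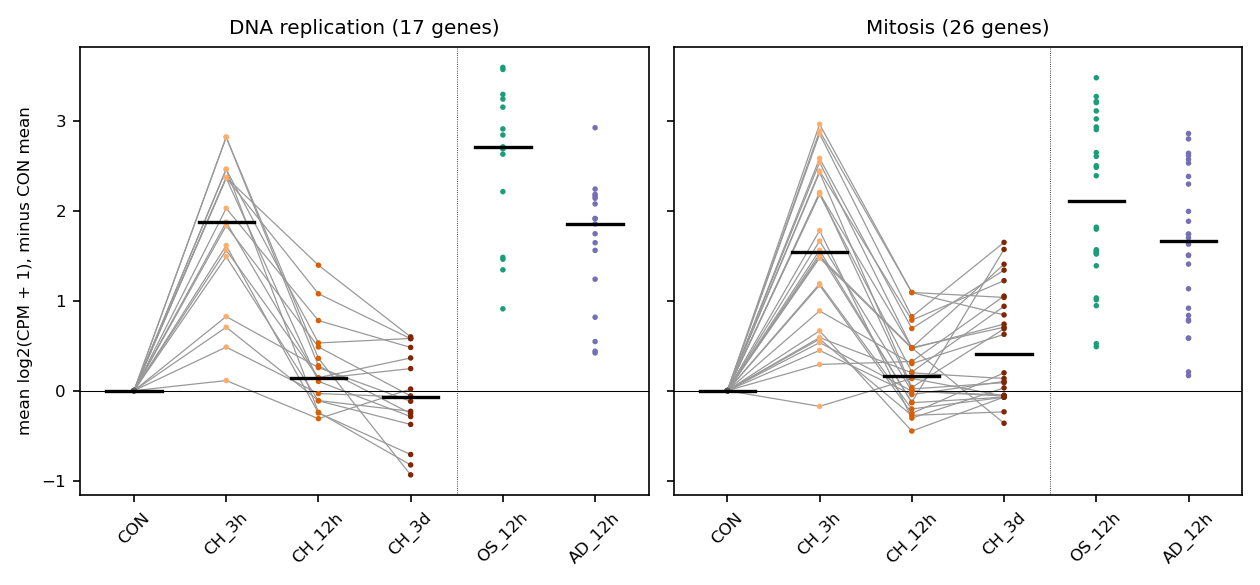
Mean log2(CPM + 1) of each group minus that of CON (y axis) for the tested genes of DNA replication (17, left) and mitosis (26, right), 1 point per gene and group, with grey lines joining a gene through the chondrogenic time points and black bars at group medians. CH_12h lies near 0 with medians of 0.14 and 0.17, below CH_3h (1.87 and 1.54), OS_12h (medians 2.71 and 2.11) and AD_12h (1.85 and 1.67).

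CH_12h differed from OS_12h in 696 genes, 309 higher and 387 lower in CH_12h (16.0% of all tested genes), and from AD_12h in 593, 307 higher and 286 lower (13.6%). Leaving out replicate 1 of AD_12h, which lay apart from the others in genes such as Igfbp5, at 767 against 166 and 174 CPM, gave 695. Sox9 was 638 CPM on average in CH_12h, 20.2, 21.2 and 13.4 CPM in OS_12h and 5.85, 5.89 and 5 CPM in AD_12h, log2 differences of 5.07 and 6.6. The largest differences from OS_12h on the higher side were Angptl7 (6.24), Igfbp5 (5.48), Sox9, Adamts4 (5.06), Sema7a (4.61), Crispld2 (4.50), Palmd (4.49) and Brinp2 (4.36). On the lower side they were Ccr1 (-7.24), Egln3 (-6.32), Cyp3a9 (at least 46.9-fold lower, with 0 reads in CH_12h), the histone genes Hist1h1a (-4.42) and Hist1h2ak (-4.22), Gprc5a (-4.21), Gch1 (-4.05) and the cyclin gene Ccnf (-3.91). Against AD_12h, the genes higher in CH_12h were led by Angptl7 (7.51), Sema7a (6.97), Sox9, Gldn (5.50), Bhlhe40 (5.13), Brinp2 (4.85), Cnn1 (4.47) and Gdf6 (4.32), and those lower by Cxcl6 (-5.24), Tgfbr3 (-4.15), Hist1h1a (-4.12), Mt2A (-3.87), Snai2 (-3.46), Dll1 (-3.38), Aox1 (-3.27) and Lum (-3.20).

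Among the lists, the contractile genes differed between the media, with 12 of 27 higher and 1 lower in CH_12h than in OS_12h, and 16 higher and 0 lower than in AD_12h, against 7.08 and 7.04% of all tested genes higher. Cnn1 was at 393, 358 and 413 CPM in CH_12h, at 71.1 to 74.4 CPM in OS_12h and at 13.3 to 24.4 CPM in AD_12h. Structural matrix genes were higher in 11 of 28 and lower in 1 against OS_12h, and higher in 12 and lower in 0 against AD_12h, or 13 and 1 without replicate 1 of AD_12h. Sterol and fatty acid genes differed little, with 2 of 17 higher than in OS_12h and 1 higher than in AD_12h, and Fasn was at 3676 to 3938 CPM in OS_12h and 3157 to 4243 CPM in AD_12h beside the 3328 to 4465 CPM of CH_12h. Its log2 difference was under 0.01 in size from OS_12h (95% interval -0.32 to 0.32) and 0.11 from AD_12h (-0.21 to 0.43). Cytokine genes were lower in CH_12h than in OS_12h in 6 of 21 and higher in 1, or 3 by edgeR, and lower than in AD_12h in 9 and higher in 3, with Cxcl1 at 7076 to 7677 CPM in OS_12h and 4442 to 6003 CPM in AD_12h.

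**Figure D5:**
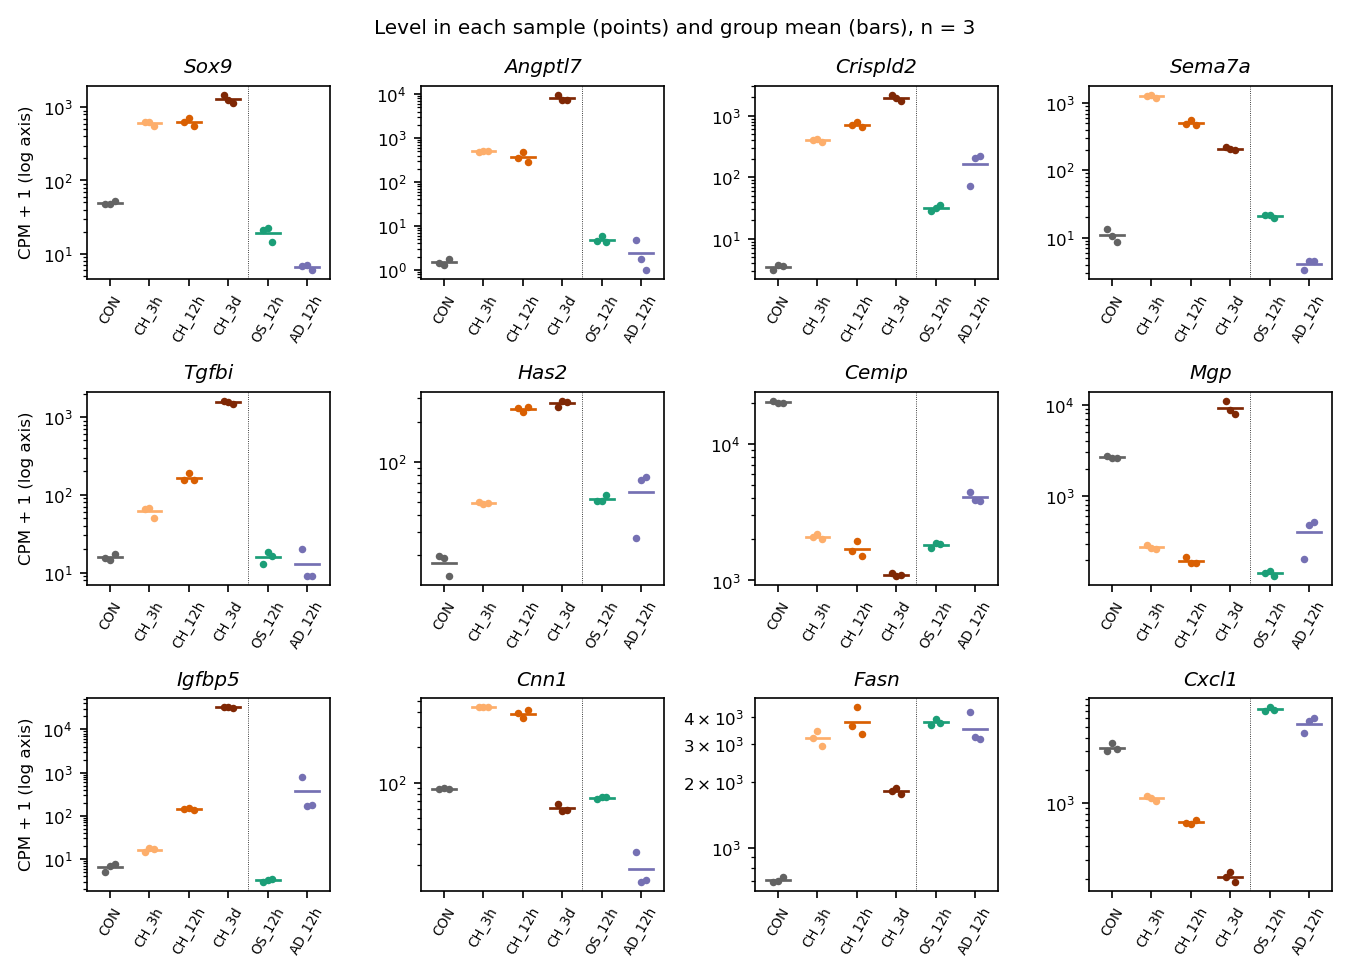
CPM plus 1 on log axes for 12 genes named in the text, 1 point per sample and a bar at each group mean (n = 3), for CON, the 3 chondrogenic times and, right of the dotted line, OS_12h and AD_12h. Sox9, Angptl7, Sema7a and Cnn1 are higher in CH_12h than in both other media, and Fasn is at a like level in the 3 media.

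Within chondrogenic medium, CH_12h differed from CH_3h in 335 genes, 76 higher (1.74% of all tested genes) and 259 lower (5.94%), which is 7.68% in all. Has2 went from 49.2, 47.1 and 48.6 CPM at 3 h to 249 ± 10.4 CPM (SD, n = 3) at 12 h, a log2 difference of 2.34, Adamts4 rose by 3.44, whereas Sox9 was at 622, 627 and 561 CPM at 3 h and 632, 718 and 564 CPM at 12 h. Igfbp5 (3.14), Plxdc2 (2.88), Lrrc17 (2.37), Slc2a13 (2.31) and Rnf144a (2.24) were the other large rises. The largest falls after 3 h were those of Hist1h1a (-3.84), Ccr1 (-3.32), Trim17 (-3.32), Slco2a1 (-3.26), Hist1h2bo (-3.22), Hist1h2ak (-3.07), Trim54 (at least 20.3-fold) and Aunip (-2.92).

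From 12 h to day 3, 576 genes differed, 348 higher (7.98%) and 228 lower at day 3 (5.23%), which is 13.2% in all, and with median-ratio scaling 431 (9.88%) and 149 (3.42%). Igfbp5 rose from 142 ± 5.69 CPM to 33332, 32936 and 31633 CPM, a log2 difference of 7.83. Mgp, which had fallen at 12 h, was at 11000, 8740 and 7896 CPM at day 3, above its level in CON, and rose by 5.55 from CH_12h. Angptl7 rose further, to 9685, 7289 and 7432 CPM (4.47), with Dclk3 (6.35), Adamts17 (5.79), Sbsn (5.63), Colgalt2, which adds sugars to collagen (at least 81.6-fold), and Lrrc17 (4.87). Falls from 12 h were led by Il1rl1 (-5.14), Kprp (-4.87), Gldn (-4.51), Adamts8 (-3.78), Mip (at least 13.9-fold lower), the laminin gene Lama5 (-3.22), Ccl2 (-3.10) and Galnt14 (-2.75). Of 17 sterol and fatty acid genes 5 were lower at day 3 than at 12 h, or 3 without replicate 2 of CH_12h, and 0 higher, and Fasn fell to 1760 to 1872 CPM. Of the 20 genes of the endoplasmic reticulum list 7 were lower and 1 higher, or 4 and 2 with median-ratio scaling. Glucocorticoid-responsive genes were higher at day 3 in 8 of 16.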

How the data were processed

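RNA-seq was done on 30 samples in 10 groups of 3, and the results rest on the 3 CH_12h and 3 CON samples, with CH_3h, CH_3d, OS_12h and AD_12h for comparison. The deposited values, named FPKM in the file headers, behaved as CPM: the authors' values were whole multiples of what 1 read is worth in each library for 100.0% of values (tolerance 0.01 reads). The submitters' processing notes name Trimmomatic, HISAT2 and StringTie, and their settings and the genome build were not given in the sources used here. The labels name a ribosomal RNA depletion kit and the study's methods an mRNA kit, so the selection of RNA is uncertain.

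Each sample had 10803 rows with 9999 gene names, and rows of the 729 names listed more than once were summed. Genes reaching 1 CPM in 3 or more samples, 4363 in all, entered limma 3.58.1 (R 4.3.3) on log2(CPM + 1), in 1 model of all 10 groups, and were called when the log2 value changed by 1 or more and the p adjusted by Benjamini-Hochberg was under 0.05. Alternatives were median-ratio, quantile and equal-sum scaling, edgeR 4.0.16 on recovered reads, a pseudocount of 0.1, no filter on low values, shared names kept apart, a replicate block, the groups compared alone and each sample left out. Scripts were tested on simulated data. Figures and promoter searches used Python 3.11.15, pandas 2.3.3, numpy 2.4.6 and matplotlib 3.10.9.

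Genes were named by rule: the 15 largest rises and falls with groups that did not overlap, up to 8 called members of each gene list with the defining members of each lineage, and the 8 largest differences each way from each other group. The members and lists were chosen with earlier results of these data known. Msmo1, Insig1, Tgfb1, Mmp2, Thy1, Ccl2, Cd44, Col9a2, Prg4, Mt2A, Mcm6, Kif11, Vim and Actb fell outside the rule and were chosen after their values were seen. Some genes that the rule names are not reported here, but they are in the counts.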

Additional observations from a re-analysis of the deposited data

Results flagged for a closer look

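Some named genes passed the threshold in opposite directions in chondrogenic medium and in another medium at 12 h, each against the same CON samples, and the difference between the media itself passed (limma, adjusted p under 0.05). Values in brackets are log2 differences of CH_12h minus the other medium, and CON does not enter them.

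Against osteogenic medium, Sox9 was 3.70 from CON in CH_12h and -1.37 in OS_12h, and Ccr1 was -5.69 and 1.54. Genes up in CH_12h and down in OS_12h were Sox9 (5.07), Adamts4 (5.06), Brinp2 (4.36), Plxdc2 (3.94) and Adamts14 (2.88). Genes down in CH_12h and up in OS_12h were Ccr1 (-7.24), Hist1h1a (-4.42), Gch1 (-4.05), Trim17 (-3.89), Cxcl1 (-3.45), Cxcl2 (-3.47), Cxcl3 (-2.88), Spry2 (-3.22) and Notch1 (-2.3), which hold a chemokine receptor and 3 chemokines. All 14 differences passed with median-ratio scaling and with edgeR, but the rise in OS_12h against CON passed in fewer. With median-ratio scaling it was lost for Gch1 (0.96), Cxcl1 (0.84), Cxcl2 (0.96), Spry2 (0.95) and Notch1 (0.81), and by edgeR for Gch1, Cxcl1, Spry2 and Notch1, so for these genes the call in OS_12h depends on the scaling. Cxcl2 and Cxcl3 had at most 1 read in a CH_12h sample.

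Against adipogenic medium, Sema7a was 5.59 from CON in CH_12h and -1.38 in AD_12h, and the clock gene Bhlhe40 was 1.31 and -3.82. Genes up in CH_12h and down in AD_12h were Sema7a (6.97), Sox9 (6.6), Brinp2 (4.85), Bhlhe40 (5.13), Cnn1 (4.47), Scx (3.85) and Ctgf (3.49). Genes down in CH_12h and up in AD_12h were Hist1h1a (-4.12), Cxcl6 (-5.24), Tgfbr3 (-4.15), Dll1 (-3.38), Aox1 (-3.27), Trim17 (-2.9) and Notch1 (-2.59). The rise of Ctgf in CH_12h against CON was not called with median-ratio scaling or edgeR, and that of Bhlhe40 was not called with quantile scaling (0.97). Replicate 1 of AD_12h lay apart from the other AD_12h samples, and without it all 14 differences from AD_12h were called in the same direction, for example Dll1 at -4.12 and Trim17 at -2.62.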

How the results depend on the processing

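The 630 genes called in CH_12h against CON were 592 with median-ratio scaling (491 shared in the same direction), 579 with quantile scaling, 754 by edgeR (508 shared) and 819 with a pseudocount of 0.1. Leaving out each sample in turn gave 597 to 676 genes against CON, 694 to 709 against OS_12h, 566 to 695 against AD_12h, 338 to 351 against CH_3h and 576 to 615 between CH_3d and CH_12h. Of 141 named called genes, 113 kept their call under every alternative run for them, where the fit with shared names kept apart covered 133 of the 141, and 28 lost it under at least 1, which was 16 with median-ratio scaling, 14 with quantile scaling and 13 by edgeR. Quantile scaling gave 293 higher and 286 lower genes and edgeR 331 and 423. Against CH_3h the share of higher genes was 22.7%, or 38.2% with quantile scaling, and against OS_12h it was 44.4%, or 57.9% by edgeR. A replicate block, which pairs samples by number, gave 631 genes. Samples of CON and CH_12h with the same number deviated together with correlations of 0.0244, 0.027 and 0.0959, and 4 of 6 samples correlated best with their own number. With 3 samples a group, these values cannot tell whether samples of the same number shared an animal or a batch. With 6312409 to 7179051 reads a library, 3 reads are worth up to 0.475 CPM, and the log2 values of genes near that level depend on the pseudocount.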
